A study of Saccharomyces cerevisiae with 16 samples.

Results

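Transcript levels in yeast treated with acrolein were set against those in yeast treated with hydrogen peroxide (H2O2), over all budding yeast genes on the array. The comparison uses the 4 arrays labelled as acrolein-treated and the 4 labelled as H2O2-treated, 8 of the 16 arrays of the series. The other 8 are untreated controls and cells given NEM. All cultures were Saccharomyces cerevisiae strain BY4741, called wild type in the labels, taken early in exponential growth and shaken at 250 rpm and 30 °C in YEPD, a rich medium with glucose. BY4741 is a haploid laboratory strain of mating type a that lacks working URA3, LEU2, HIS3 and MET17 genes, in controls and treated cells alike. Acrolein was given at 0.05 mM and H2O2 at 0.3 mM, each for 1 h, and NEM, which enters here only as a reference, at 0.016 mM. The doses therefore differ, and sizes of response are set side by side without a claim of matched exposure. Labelled RNA was measured on Affymetrix Yeast Genome 2.0 arrays, which report each transcript through a set of short probes, and values are GCRMA-normalised log2 signals. Differences are given as acrolein minus H2O2 on the log2 scale with their standard error (SE) from a limma fit. A gene is called where its p-value, adjusted by the Benjamini-Hochberg method over all 5785 tested probe sets, lies under 0.05. The labels do not say whether arrays within a group stem from independent cultures, so the p-values measure the spread between arrays, which may be technical.

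Hydrogen peroxide oxidises protein thiols and is removed by catalases, by peroxidases and by peroxiredoxins, which draw on thioredoxin and NADPH. Acrolein is a small unsaturated aldehyde (an enal) that binds covalently to thiols, glutathione included, and can be reduced by enzymes that act on the double bond or on the aldehyde. In budding yeast the transcription factor Yap1 is activated by peroxide through disulfide formation and by thiol-reactive electrophiles through modification of its cysteines. With its partner Skn7 it induces peroxide-removing enzymes, and Yap1 also drives genes for reductases, glutathione synthesis and drug exporters.

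The marker deletions of the strain were visible in part. URA3 and MET17 read 1.92, the lowest value of the file, on all 8 arrays, and LEU2 read 1.92 on 7 and 1.98 on the other. HIS3, only partly deleted in this strain, read 11.43 to 12.27 and gave no check. The 7 markers of mating type a cells were all expressed, with a summed level of 15.02 to 15.45 after acrolein and 15.21 to 15.41 after H2O2. Of the 4 markers of mating type alpha cells, the alpha-factor genes MF(ALPHA)1 and MF(ALPHA)2 stayed within background, whereas STE3 read 4.57 to 5.42 after acrolein and 6.01 to 6.65 after H2O2, and SAG1 11.35 to 11.57 and 10.91 to 11.15. Of 12 meiosis and sporulation genes 5 were within background on all 8 arrays. Background here means at or under 5.15, the highest value of any probe set for the other yeast species on the array. Acrolein replicate 1 had the highest ribosomal RNA and 3′ minus 5′ signals of the 8 arrays, and H2O2 replicate 4 the lowest ribosomal RNA signal. The mean signal of 7 ribosomal RNA probe sets was 15.48, 11.77, 12.52 and 9.20 on the acrolein arrays and 7.80, 11.56, 10.69 and 4.38 on the H2O2 arrays. The groups overlapped, and the difference of 3.64 had an exact two-sided permutation p of 0.143 (smallest possible 0.0286). The signal of 3′ minus 5′ probe sets over 7 transcripts was 1.20 on acrolein replicate 1 and 0.62 to 0.78 on the other 7 arrays (difference of group means 0.08, exact permutation p = 0.914). The tests were also fitted without acrolein replicate 1 and H2O2 replicate 4, and with the ribosomal RNA signal as a covariate.

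The treatments left widely different transcript profiles. Of 5785 probe sets, 3232 (55.9%) were called between acrolein and H2O2, with 1500 (25.9%) higher and 1732 (29.9%) lower after acrolein. Called counts in the gene lists below are to be read beside these shares. At least 2-fold differences were fewer, with 183 (3.16%) higher and 278 (4.81%) lower after acrolein. For 2708 probe sets (46.8%) the 4 acrolein arrays lay entirely above or below the 4 H2O2 arrays. Without acrolein replicate 1 and H2O2 replicate 4 the counts were 1342 higher and 1451 lower, and 147 and 243 by at least 2-fold. Among the 183 probe sets at least 2-fold higher after acrolein, the control mean lay nearer to the H2O2 mean for 170, and among the 278 lower ones for 250. Over all 5785 probe sets the median absolute difference was 0.33 from control after acrolein and 0.13 after H2O2, in comparisons that use the same control arrays. ACT1, which encodes actin, read 15.48, 15.57, 15.48 and 15.39 after acrolein and 15.44, 15.44, 15.32 and 15.52 after H2O2, and its difference of 0.05 ± 0.05 missed the threshold (limma adjusted p = 0.42).

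**Figure D1:**
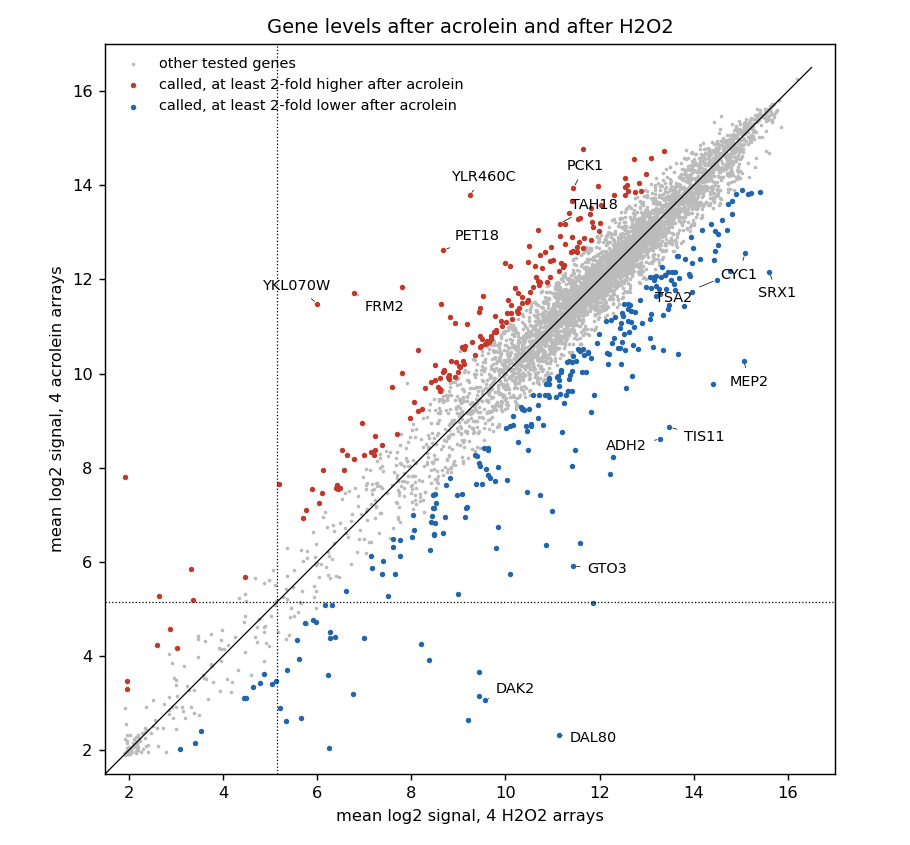
Mean log2 signal of each named gene on the 4 acrolein arrays (vertical axis) against the 4 H2O2 arrays (horizontal axis). The solid line marks equal levels, the dotted lines the background limit of 5.15, red points the 174 genes called at least 2-fold higher after acrolein and blue points the 264 called at least 2-fold lower, with DAL80 and FRM2 among the farthest from the line.

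**Figure D2:**
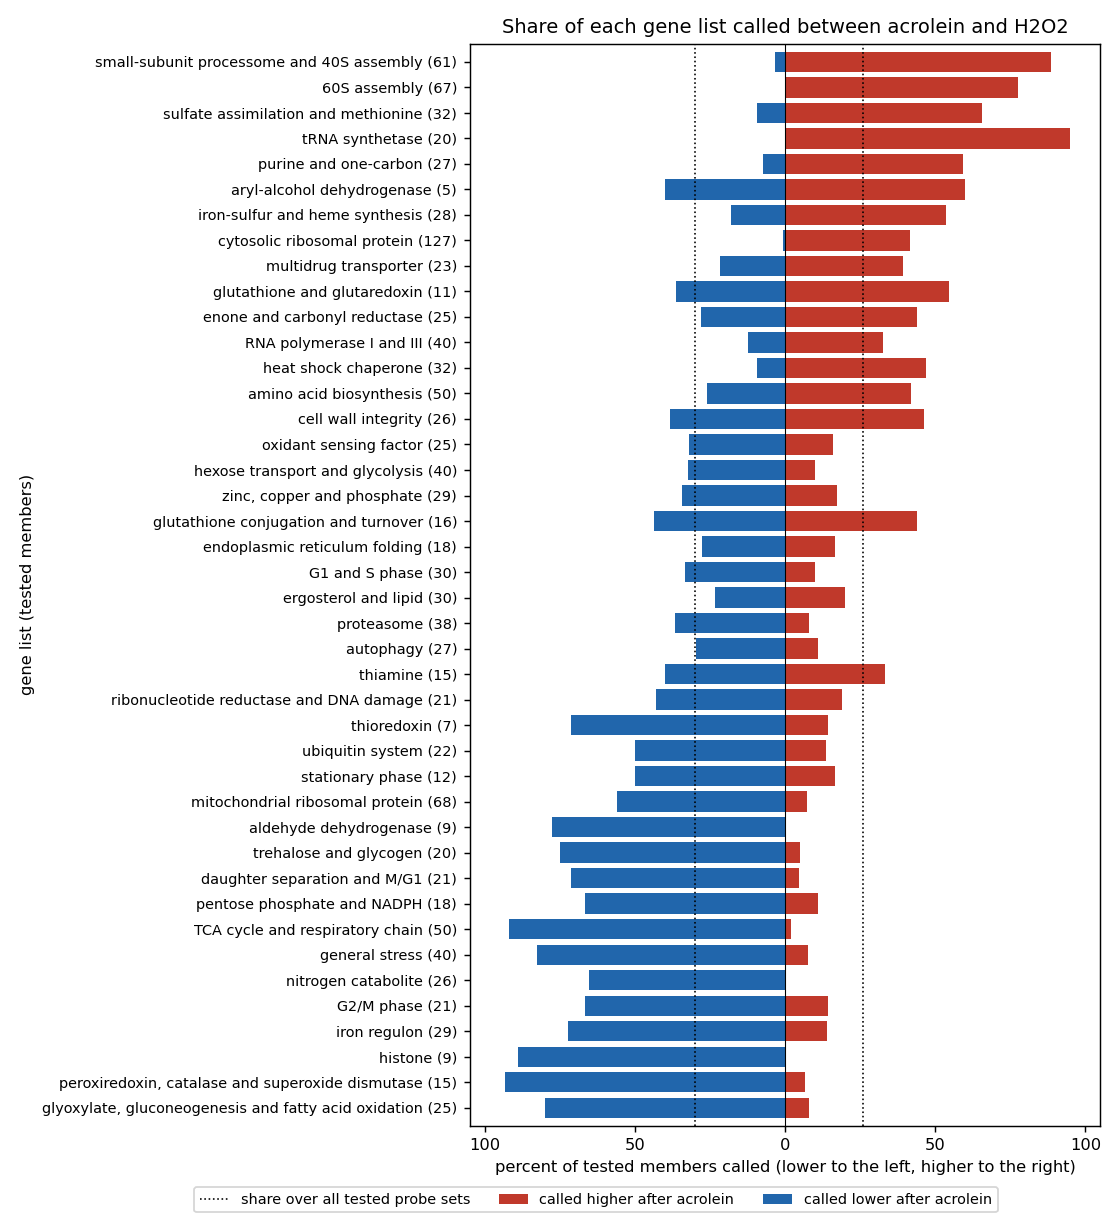
Percent of the tested members of each gene list called higher after acrolein (red, to the right) or lower (blue, to the left), with the number of tested members in parentheses. The dotted lines are the shares over all 5785 probe sets, 25.9% higher and 29.9% lower. The tRNA synthetase (19 of 20) and small-subunit assembly (54 of 61) bars reach farthest to the right, and the peroxide-removal (14 of 15) and TCA cycle (46 of 50) bars farthest to the left.

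Enzymes that remove peroxide were higher after H2O2. Of 15 tested peroxiredoxin, peroxidase, catalase and superoxide dismutase genes, 14 were called lower after acrolein than after H2O2 and 1 was higher, with a median difference of -0.78 against -0.01 over all probe sets. Relative to control the same genes had a median of 0.00 after acrolein and 0.55 after H2O2. SRX1, the sulfiredoxin that repairs overoxidised peroxiredoxins, stood at 12.17, 12.09, 12.26 and 12.11 on the acrolein arrays and 15.52, 15.54, 15.66 and 15.68 on the H2O2 arrays, with a control mean of 9.57. All 8 treated arrays lay above the control, the H2O2 arrays farther up, and the level after acrolein was 10.9-fold lower than after H2O2 (-3.44 ± 0.09, limma adjusted p = 1.72e-11). TSA2, an inducible cytosolic peroxiredoxin, read 11.88, 12.15, 11.95 and 11.99 after acrolein and 14.47, 14.49, 14.49 and 14.49 after H2O2 against 12.23 in the control. It was higher than control after H2O2 (2.26 ± 0.08, limma adjusted p = 1.72e-10) and slightly lower after acrolein (-0.24 ± 0.08, limma adjusted p = 0.0212), a 5.63-fold gap between treatments (limma adjusted p = 1.03e-10).

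The catalases split in the same way. CTA1, the peroxisomal catalase, measured 11.82, 12.84, 12.37 and 12.58 after acrolein and 14.46, 14.56, 14.57 and 14.11 after H2O2, with the control at 12.72. Its acrolein arrays sat about the control level and below every H2O2 array (-2.02 ± 0.20, limma adjusted p = 2.52e-06). CTT1, the cytosolic catalase of the general stress response, measured 12.01, 12.03, 12.10 and 11.78 and 13.57, 13.79, 13.52 and 13.20, with the control between them at 12.97 (-1.54 ± 0.12, limma adjusted p = 1.66e-07). CCP1, the mitochondrial cytochrome c peroxidase, measured 14.65, 14.71, 14.63 and 14.72 after acrolein and 15.59, 15.66, 15.55 and 15.59 after H2O2, and the control mean of 14.71 lay with the acrolein arrays (-0.92 ± 0.04, limma adjusted p = 1.06e-09). CYC1, the main isoform of cytochrome c and the electron donor of that peroxidase, read 12.56, 12.52, 12.61 and 12.53 after acrolein and 15.02, 15.21, 15.08 and 15.05 after H2O2, with the control at 12.16. The H2O2 arrays stood far above both other groups, 5.81-fold over acrolein (-2.54 ± 0.05, limma adjusted p = 1.44e-12).

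The glutathione peroxidase-like genes differed from each other in their distance to control. GPX2, a phospholipid hydroperoxide peroxidase, read 14.13, 14.04, 14.19 and 14.34 after acrolein and 15.22, 15.25, 15.37 and 14.84 after H2O2 against 11.64 in the control (-0.99 ± 0.11, limma adjusted p = 7.09e-06). GPX1, its relative, stood at 11.10, 11.15, 11.26 and 10.89 after acrolein and 12.73, 12.69, 12.66 and 12.58 after H2O2, with a control of 12.83 near the H2O2 arrays (-1.56 ± 0.14, limma adjusted p = 9.19e-07). The abundant enzymes TSA1, AHP1 and SOD1 differed little, by -0.26 ± 0.03, -0.19 ± 0.04 and -0.15 ± 0.04, at mean levels above 15.3 in every treated group. The SOD1 call ended after quantile normalization (limma adjusted p = 0.0503) and with the ribosomal RNA covariate (limma adjusted p = 0.0733). CCS1, the copper chaperone of Sod1, was the 1 member higher after acrolein, with 14.60, 14.93, 14.68 and 14.91 against 14.30, 14.31, 14.29 and 14.01 (0.55 ± 0.08, limma adjusted p = 8.35e-05).

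Thioredoxin and glutathione genes differed by less and in mixed directions. Of 7 tested thioredoxin-system genes 5 (71.4%) were lower after acrolein and 1 (14.3%) higher, beside 29.9% and 25.9% over all probe sets. The median difference was -0.14, and at an adjusted p under 0.01 or in a fit of the 2 groups alone 3 were lower. TRX2, the inducible cytosolic thioredoxin, read 15.15, 15.16, 15.12 and 15.10 after acrolein and 15.32, 15.24, 15.28 and 15.28 after H2O2 (-0.14 ± 0.04, limma adjusted p = 0.00334). TRR1, its reductase, had overlapping arrays, at 14.80, 14.97, 14.91 and 14.85 and 15.28, 15.37, 15.03 and 14.96, and its call (-0.28 ± 0.09, limma adjusted p = 0.0145) ended in the fit of the 2 groups alone (limma adjusted p = 0.0519). TRX3, the mitochondrial thioredoxin, was lower after acrolein (-1.02 ± 0.12, limma adjusted p = 1.69e-05), whereas MXR1, a methionine sulfoxide reductase, was higher (0.36 ± 0.04, limma adjusted p = 6.21e-06).

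Of 11 glutathione and glutaredoxin genes 6 (54.5%) were higher and 4 (36.4%) lower after acrolein (median 0.19), beside 25.9% and 29.9% over all probe sets. The enzymes of glutathione synthesis parted: GSH1, which makes gamma-glutamylcysteine, was higher after acrolein (0.28 ± 0.08, limma adjusted p = 0.00675). GSH2, which adds glycine, was lower (-0.42 ± 0.08, limma adjusted p = 0.000586). GLR1, glutathione reductase, read 14.80, 14.85, 14.78 and 14.92 after acrolein and 14.77, 14.80, 14.77 and 14.73 after H2O2, a difference of 0.07 ± 0.04 with a 95% interval of -0.01 to 0.15 (limma adjusted p = 0.14, and 0.047 after quantile normalization). GRX8, a glutaredoxin of the cytosol, had the widest difference of the list, with 11.91, 11.77, 11.76 and 11.93 against 10.51, 10.56, 10.73 and 10.57 and a control of 10.80 (1.25 ± 0.08, limma adjusted p = 3.65e-08).

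Of 25 tested factors for oxidants and related stresses, 4 (16%) were higher and 8 (32%) lower after acrolein, beside 25.9% and 29.9% over all probe sets. The median difference was -0.01, its sign varied with the fit, and 5 were lower at an adjusted p under 0.01. A few single regulators differed widely. YAP1 read 12.17, 12.81, 12.55 and 12.98 after acrolein and 13.58, 13.41, 13.18 and 13.45 after H2O2, against 12.54 in the control. Only the H2O2 arrays were all above the control mean, and YAP1 was lower after acrolein than after H2O2 (-0.78 ± 0.16, limma adjusted p = 0.000966, and -0.51 with the ribosomal RNA covariate). For SKN7 the difference of -0.17 ± 0.10 missed the threshold (limma adjusted p = 0.184) with overlapping arrays. CIN5, a Yap family factor linked to salt and drug tolerance, read 10.96, 11.38, 11.39 and 10.88 after acrolein and 13.03, 13.21, 13.05 and 12.98 after H2O2. Its acrolein arrays spanned the control mean of 11.13, and the H2O2 arrays all lay above it (-1.92 ± 0.19, limma adjusted p = 2.58e-06). YRR1, a zinc finger activator of drug transporters, ran the other way, at 13.50, 13.69, 13.59 and 13.86 after acrolein against 11.51, 11.34, 11.45 and 11.33 after H2O2 and 10.71 in the control. It was 4.76-fold higher after acrolein (2.25 ± 0.08, limma adjusted p = 2.99e-10). STB5, an activator of NADPH-producing genes, was lower after acrolein (-0.96 ± 0.08, limma adjusted p = 3.65e-07), and RPN4, the activator of proteasome genes, higher (0.44 ± 0.04, limma adjusted p = 9.19e-07).

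Reductases for unsaturated and carbonyl compounds held some of the widest differences toward acrolein. Of 25 tested, 11 (44%) were called higher and 7 (28%) lower after acrolein, beside 25.9% and 29.9% over all probe sets. The median was 0.16, so the list did not move as a whole. FRM2, a nitroreductase-like gene, read 11.68, 11.62, 11.74 and 11.78 after acrolein and 6.75, 7.70, 6.51 and 6.20 after H2O2, and the control arrays lay within background at a mean of 1.97. Both treatments were above control, and FRM2 was 30.2-fold higher after acrolein (4.92 ± 0.22, limma adjusted p = 1.55e-09). YLR460C, related to quinone oxidoreductases, read 13.84, 13.65, 13.79 and 13.87 after acrolein and 8.99, 9.35, 9.42 and 9.20 after H2O2, with the control at 5.59. It showed the same order of acrolein over H2O2 over control, 23.4-fold apart between treatments (4.55 ± 0.20, limma adjusted p = 1.45e-09). Its relative YCR102C measured 14.71, 14.81, 14.65 and 14.91 and 11.54, 11.60, 11.70 and 11.77 against 8.26 in the control (3.12 ± 0.12, limma adjusted p = 3.69e-10).

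The old yellow enzymes, which reduce the double bond of enals and enones, differed by less. OYE3 read 15.37, 15.47, 15.36 and 15.69 after acrolein and 14.55, 14.75, 14.61 and 14.42 after H2O2, both far above the control mean of 6.79. No arrays overlapped, but the gap between treatments was 1.85-fold (0.89 ± 0.16, limma adjusted p = 0.000515). OYE2, at 15.24, 15.43, 15.31 and 15.36 and 14.39, 14.54, 14.35 and 14.43 with a control of 13.95, differed by a similar amount (0.91 ± 0.05, limma adjusted p = 9.4e-09). GRE2, a methylglyoxal and diacetyl reductase, and ADH6, a broad alcohol dehydrogenase that uses NADPH, were higher after acrolein by 0.40 ± 0.10 and 0.33 ± 0.05 (limma adjusted p = 0.00309 and 0.000213). Other members were lower after acrolein, among them all 3 glyoxalase genes GLO1, GLO2 and GLO4. GCY1, a glycerol dehydrogenase of the aldo-keto reductase family, read 13.63, 14.02, 13.82 and 13.79 after acrolein and 15.24, 15.08, 15.11 and 15.21 after H2O2 (-1.35 ± 0.09, limma adjusted p = 4.9e-08). GLO2, a cytosolic glyoxalase, was likewise lower (-1.16 ± 0.09, limma adjusted p = 2.84e-07).

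Of 5 tested aryl-alcohol dehydrogenase genes 3 were higher and 2 lower after acrolein. AAD6 read 12.74, 13.19, 13.18 and 13.66 after acrolein and 12.43, 12.30, 12.51 and 12.39 after H2O2 against 10.05 in the control (0.78 ± 0.19, limma adjusted p = 0.00384). AAD3 and AAD4 also differed upward, by 0.94 ± 0.11 and 0.28 ± 0.07, but their probe sets match several near-identical family members, so the gene behind the signal is uncertain. None of 9 aldehyde dehydrogenase genes was called higher after acrolein and 7 (77.8%) were lower (median -0.25), beside 29.9% lower over all probe sets. In the fit of the 2 groups alone, at an adjusted p under 0.01 and with the ribosomal RNA covariate, 4 were lower. ALD2, a cytosolic stress-induced form, led them with 11.62, 11.53, 11.42 and 11.46 after acrolein and 12.49, 12.13, 12.26 and 12.29 after H2O2 (-0.79 ± 0.07, limma adjusted p = 1.35e-06).

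Genes for glutathione conjugation and breakdown went both ways, 7 higher (43.8%) and 7 lower (43.8%) of 16. Over all probe sets 25.9% were higher and 29.9% lower, or 1323 of 5785 lower at an adjusted p under 0.01. The median of the list, -0.02, lay near the -0.01 over all probe sets. The list's count of lower genes was 4 at an adjusted p under 0.01 and after quantile normalization, where its median was 0.02. It was 5 with the ribosomal RNA covariate, where the median was 0.05. GTT2, a glutathione transferase, read 14.66, 14.87, 14.72 and 14.83 after acrolein and 14.05, 14.22, 14.23 and 14.01 after H2O2, both above 11.19 in the control (0.64 ± 0.07, limma adjusted p = 6.72e-06). OPT1, a transporter of glutathione and oligopeptides, read 13.34, 13.63, 13.61 and 13.69 after acrolein and 11.98, 11.97, 12.01 and 12.11 after H2O2, and the control mean of 11.93 lay with the H2O2 arrays (1.55 ± 0.08, limma adjusted p = 7.94e-09). DUG2 and DUG3, subunits of the cytosolic enzyme that degrades glutathione, were higher after acrolein by 1.03 ± 0.05 and 1.27 ± 0.06 (limma adjusted p = 5.68e-09 and 1.06e-09). GTO3, an omega-class glutathione transferase, went against the others, at 4.69, 5.84, 6.21 and 6.92 after acrolein and 11.32, 10.89, 11.77 and 11.74 after H2O2. The control mean of 9.97 stood between the groups, 1 acrolein array was within background, and the difference was -5.51 ± 0.39 (limma adjusted p = 1.16e-07). YCF1, the vacuolar pump for glutathione conjugates, was above its control mean of 12.94 on all 8 arrays and higher after acrolein (0.47 ± 0.07, limma adjusted p = 4.55e-05).

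Drug and polyamine exporters were higher after acrolein in 9 of 23 tested (39.1%) and lower in 5 (21.7%), beside 25.9% and 29.9% over all probe sets. Their median difference was 0.19, and 3 were lower with the ribosomal RNA covariate. FLR1, a multidrug exporter under Yap1 control, read 14.57, 14.53, 14.55 and 14.58 after acrolein and 12.52, 12.80, 12.80 and 12.78 after H2O2 against 11.57 in the control (1.83 ± 0.07, limma adjusted p = 5.81e-10). ATR1, which exports aminotriazole and borate, read 13.81, 14.13, 13.88 and 14.03 and 12.52, 12.73, 12.55 and 12.34 against 8.80 (1.43 ± 0.14, limma adjusted p = 2.29e-06). Both rose over control with each agent, and more so with acrolein at these doses. TPO1, a polyamine exporter, read 12.28, 12.63, 12.52 and 11.97 after acrolein and 9.91, 10.04, 9.85 and 10.12 after H2O2, against 9.56 in the control. It was 5.16-fold higher after acrolein (2.37 ± 0.13, limma adjusted p = 9.53e-09), as was AQR1, an exporter of organic acids and amino acids, at 10.58, 10.58, 10.71 and 10.16 against 8.20, 8.19, 8.47 and 7.71 (2.37 ± 0.21, limma adjusted p = 7.3e-07).

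**Figure D3:**
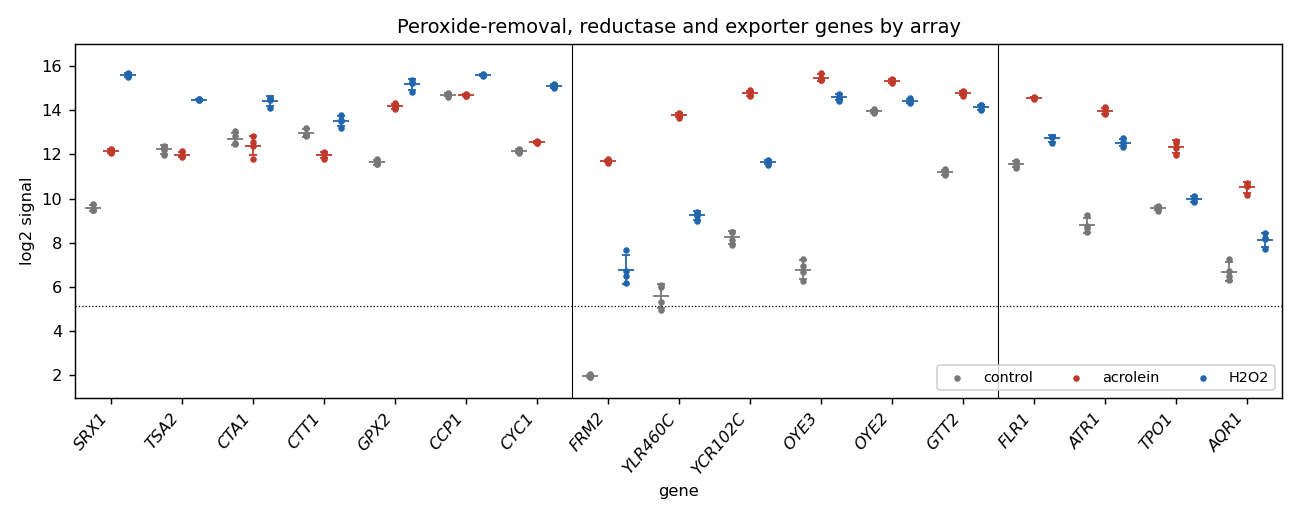
Log2 signal of 17 peroxide-removal, reductase and exporter genes on each control (grey), acrolein (red) and H2O2 (blue) array. Points are arrays, horizontal ticks and bars the mean and SD of 4 arrays, and the dotted line the background limit of 5.15. SRX1, TSA2 and CYC1 are highest after H2O2, and FRM2, YLR460C and YCR102C highest after acrolein.

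Genes that supply NADPH were mostly lower after acrolein, 12 of 18 (66.7%) against 2 (11.1%) higher (median -0.39), or 4 higher with the ribosomal RNA covariate. Over all probe sets 29.9% were lower and 25.9% higher. Of the oxidative steps, ZWF1, the entry enzyme of the pentose phosphate pathway, was lower after acrolein. It read 14.12, 14.21, 14.14 and 14.62 after acrolein and 14.80, 14.71, 14.58 and 15.01 after H2O2 (-0.50 ± 0.12, limma adjusted p = 0.00354, and -0.28 with the ribosomal RNA covariate). GND2, a stress-induced phosphogluconate dehydrogenase, was above its control mean of 8.87 on all 8 arrays, and its difference of 0.23 ± 0.14 missed the threshold (limma adjusted p = 0.201, and 0.0258 with that covariate). The wide differences were in isoforms known for growth on poor carbon sources. TKL2, a minor transketolase, read 6.59, 6.04, 3.80 and 6.53 after acrolein, 1 array within background, and 10.56, 9.10, 9.99 and 10.73 after H2O2 (-4.35 ± 0.53, limma adjusted p = 1.74e-05). NQM1, a minor transaldolase, and IDP2, the cytosolic isocitrate dehydrogenase that makes NADPH, were lower, with differences of -2.24 ± 0.16 and -2.84 ± 0.22 (limma adjusted p = 1.25e-07 and 2.64e-07). RKI1, ribose-phosphate ketol-isomerase, was higher after acrolein (0.95 ± 0.22, limma adjusted p = 0.00248, and 0.61 with the covariate).

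Iron uptake and recycling genes were lower after acrolein. Of 29 tested members of the iron regulon, the genes that Aft1 and Aft2 switch on when iron is scarce, together with related uptake genes, 21 were lower and 4 higher (median -0.76). Those counts were the same without acrolein replicate 1 and H2O2 replicate 4, and with the ribosomal RNA covariate. Relative to control the list's median was -0.60 after acrolein and 0.25 after H2O2. TIS11, which directs the decay of mRNAs for iron-using proteins, read 8.66, 8.65, 8.90 and 9.24 after acrolein and 13.50, 13.43, 13.36 and 13.64 after H2O2, with the control at 13.24 beside the H2O2 arrays. It was 24.5-fold lower after acrolein (-4.62 ± 0.15, limma adjusted p = 1.03e-10). HMX1, the heme oxygenase, read 6.67, 7.48, 7.13 and 7.06 after acrolein and 11.04, 10.92, 11.01 and 10.96 after H2O2, with the control at 10.20 between them (-3.90 ± 0.16, limma adjusted p = 5.81e-10). SIT1, a transporter of iron-siderophore complexes, read 10.30, 10.50, 10.39 and 10.43 after acrolein and 13.68, 13.62, 13.67 and 13.66 after H2O2 (-3.25 ± 0.08, limma adjusted p = 5.53e-12). Both genes were below control after acrolein and above it after H2O2, each called.

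FRE5, a putative metal reductase, lay within background on all 4 acrolein arrays and at 9.83, 9.10, 9.36 and 9.43 after H2O2, at least 19.4-fold higher there (limma adjusted p = 8.53e-09). Such a bound sets the mean of the measured group against the background limit. LSO1, a small protein induced in iron scarcity, was within background in the acrolein group and at 6.64, 6.84, 5.22 and 6.32 after H2O2, at least 2.15-fold higher (limma adjusted p = 6e-07). FRE3, a reductase for iron bound to siderophores, ran against the list, at 12.98, 12.54, 12.53 and 12.70 after acrolein and 11.47, 11.55, 11.48 and 11.61 after H2O2 (1.16 ± 0.10, limma adjusted p = 7.26e-07). AFT2 itself differed by -0.06 ± 0.13 with a 95% interval of -0.34 to 0.23 and stood above its control mean of 10.33 on all 8 arrays.

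Iron-sulfur cluster and heme synthesis genes went the other way on balance, 15 higher (53.6%) and 5 lower (17.9%) of 28 (median 0.25). Over all probe sets 25.9% were higher and 29.9% lower. TAH18, which passes electrons in the assembly of cytosolic iron-sulfur proteins, read 13.37, 13.14, 13.10 and 13.14 after acrolein and 11.21, 11.23, 11.29 and 10.89 after H2O2 against 8.43 in the control (2.03 ± 0.15, limma adjusted p = 1.25e-07). YAH1, the mitochondrial ferredoxin, read 13.02, 12.80, 12.93 and 12.97 and 11.12, 11.27, 10.83 and 11.42 with a control of 10.31 (1.77 ± 0.12, limma adjusted p = 5.31e-08). CFD1, a scaffold of the cytosolic machinery, was higher by 0.98 ± 0.08 (limma adjusted p = 2.72e-07). ISU2, a mitochondrial scaffold for cluster assembly, was lower after acrolein, at 13.78, 13.96, 13.84 and 13.71 after acrolein and 14.89, 14.91, 14.89 and 14.88 after H2O2, both above 13.11 in the control (-1.07 ± 0.06, limma adjusted p = 8.43e-09).

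Genes for the use of nonfermentable carbon were much lower after acrolein. Of 25 tested genes of the glyoxylate cycle, gluconeogenesis and fatty acid oxidation 20 were lower, 18 of them by at least 2-fold, and 2 were higher (median -1.74). For the TCA cycle and respiratory chain 46 of 50 were lower and 1 higher, by less (median -0.45). ADH2, the alcohol dehydrogenase that consumes ethanol, read 8.77, 8.86, 8.20 and 8.62 after acrolein and 13.42, 12.29, 14.10 and 13.35 after H2O2, with the control at 13.98. Every acrolein array lay below every control and H2O2 array, a 25.6-fold difference from H2O2 (-4.68 ± 0.34, limma adjusted p = 1.3e-07). SFC1, the mitochondrial carrier that exchanges succinate and fumarate, read 8.45, 10.70, 9.91 and 10.04 and 14.56, 13.85, 14.66 and 14.54 with a control of 14.24 (-4.63 ± 0.39, limma adjusted p = 5.5e-07). POX1, the acyl-CoA oxidase that opens peroxisomal beta-oxidation, was spread widely after acrolein, at 3.71, 8.22, 5.37 and 8.31, with replicate 1 within background, and stood at 11.31, 11.68, 12.12 and 11.23 after H2O2 (-5.18 ± 0.79, limma adjusted p = 0.000108).

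PCK1, which encodes the phosphoenolpyruvate carboxykinase of gluconeogenesis, opposed its list. It read 13.44, 14.42, 13.97 and 13.93 after acrolein and 11.88, 11.03, 11.68 and 11.19 after H2O2, with the control at 12.86 between the groups. Both treatments differed from control, upward after acrolein and downward after H2O2 (limma adjusted p = 0.00164 and 0.00116), and the gap was 5.63-fold (2.49 ± 0.24, limma adjusted p = 2.24e-06). Among respiratory genes, ACO1, aconitase, read 12.64, 13.40, 12.89 and 13.18 after acrolein and 14.56, 14.50, 14.36 and 14.35 after H2O2 (-1.41 ± 0.14, limma adjusted p = 2.43e-06). NDE2, an external NADH dehydrogenase of mitochondria, was lower by a wider margin (-2.98 ± 0.43, limma adjusted p = 6.37e-05). SUE1, a mitochondrial protein needed to degrade unstable cytochrome c, read 8.21, 8.77, 8.02 and 7.93 after acrolein and 12.67, 12.06, 12.23 and 12.21 after H2O2, with a control of 12.63 (-4.06 ± 0.24, limma adjusted p = 1.8e-08). Of 68 mitochondrial ribosomal protein genes 38 (55.9%) were lower and 5 (7.35%) higher (median -0.21), beside 29.9% and 25.9% over all probe sets. MRP17 differed most (-0.999 ± 0.08, limma adjusted p = 3.43e-07).

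Nitrogen catabolite genes, which are repressed on good nitrogen sources, were lower after acrolein in 17 of 26 and higher in none (median -0.61), or higher in 1 with a median of -0.405 with the ribosomal RNA covariate. DAL80, a GATA repressor of these genes that is itself under the same control, lay within background on all 4 acrolein arrays, at 2.41, 2.02, 2.41 and 2.46, against 11.39, 10.75, 10.58 and 11.81 after H2O2 and a control of 11.94. Its level after H2O2 was at least 63.4-fold higher (limma adjusted p = 7.3e-11). MEP2, the high-affinity ammonium permease, read 10.03, 10.89, 9.67 and 10.50 after acrolein and 15.15, 15.01, 14.96 and 15.13 after H2O2 (-4.79 ± 0.20, limma adjusted p = 5.81e-10). PUT4, a proline permease, read 6.78, 9.20, 6.95 and 8.52 and 11.97, 11.70, 12.46 and 12.72 (-4.35 ± 0.50, limma adjusted p = 1.04e-05), and UGA4, a GABA permease with 1 of 4 acrolein arrays within background, differed by -3.50 ± 0.49 (limma adjusted p = 5.93e-05). For MEP2 and PUT4 the control means of 15.28 and 12.87 were nearer to the H2O2 arrays.

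Sulfate assimilation and methionine genes differed in the other direction for the most part. Of 32 sulfate assimilation and methionine genes 21 were higher and 3 lower after acrolein (median 0.36). MET16, which reduces activated sulfate, read 13.73, 13.82, 13.74 and 13.91 after acrolein and 12.21, 12.37, 12.43 and 12.24 after H2O2, and the H2O2 arrays lay close to the control mean of 12.16 (1.49 ± 0.06, limma adjusted p = 2.99e-10). The regulators MET28 and MET32 of this pathway were higher by 1.18 ± 0.11 and 1.12 ± 0.08 (limma adjusted p = 1.33e-06 and 1.19e-07). Other amino acid biosynthesis genes were mixed, 21 higher (42%) and 13 lower (26%) of 50 (median 0.12), beside 25.9% and 29.9% over all probe sets. The lysine genes were the widest of those lower. LYS20, homocitrate synthase, read 12.93, 12.41, 12.58 and 12.48 after acrolein and 14.46, 14.65, 14.49 and 14.19 after H2O2 against 12.14 in the control (-1.85 ± 0.13, limma adjusted p = 1.25e-07). LYS1, saccharopine dehydrogenase, was lower, with a difference of -1.47 ± 0.08 (limma adjusted p = 1.29e-08) and was below control after acrolein and above it after H2O2.

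**Figure D4:**
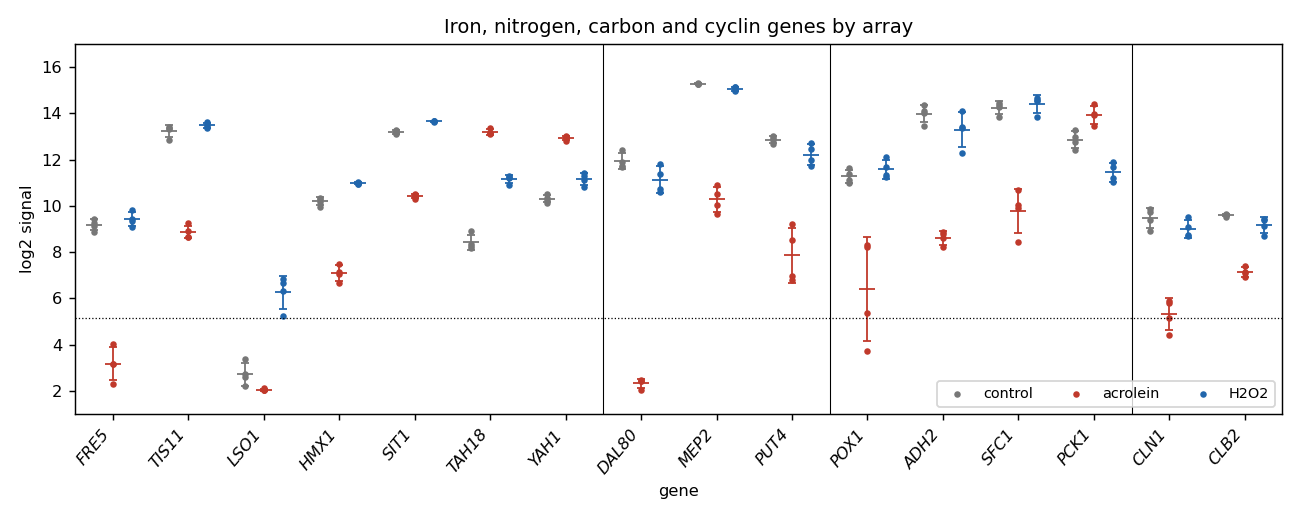
Log2 signal of 16 iron, nitrogen, carbon and cyclin genes on each control (grey), acrolein (red) and H2O2 (blue) array. Points are arrays, horizontal ticks and bars the mean and SD of 4 arrays, and the dotted line the background limit of 5.15. DAL80 and FRE5 are within background after acrolein alone of the groups drawn, and TAH18, YAH1 and PCK1 are highest after acrolein.

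Ribosome assembly genes were higher after acrolein. Of 61 tested genes for the small-subunit processome and 40S assembly 54 were higher and 2 lower (median 0.92), and of 67 for 60S assembly 52 were higher and none lower (median 0.88). The median level of the 61 genes was 11.06, 10.33, 11.03 and 10.61 on the acrolein arrays and 9.53, 10.06, 10.11 and 9.61 on the H2O2 arrays. These values did not overlap, and H2O2 replicates 1 and 4 were the lowest of their group in this median and in the ribosomal RNA signal. With that signal as a covariate 33 small-subunit and 32 large-subunit genes were called higher, 1 large-subunit gene was lower and the medians were 0.61 and 0.52, and without acrolein replicate 1 and H2O2 replicate 4 the counts were 36 and 33. UTP11, a processome subunit, read 10.64, 9.63, 10.36 and 10.12 after acrolein and 8.28, 8.69, 8.70 and 8.35 after H2O2 (1.69 ± 0.25, limma adjusted p = 9.34e-05). KRE33, the acetyltransferase of 18S ribosomal RNA, read 11.75, 11.60, 12.24 and 11.66 and 9.92, 10.40, 10.67 and 9.79 (1.61 ± 0.21, limma adjusted p = 2.8e-05). IMP3, a processome component, and DBP3, a helicase of 60S assembly, were higher by 1.49 ± 0.19 and 1.46 ± 0.32 (limma adjusted p = 2.97e-05 and 0.00168), with 0.92 for DBP3 under the covariate.

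Cytosolic ribosomal protein genes differed by less, with 53 of 127 (41.7%) higher, 1 lower and a median of 0.22. Over all probe sets 25.9% were higher and 29.9% lower. With the covariate 21 were higher and 3 lower, and the median was 0.065. The count of higher genes fell to 29 without acrolein replicate 1 and H2O2 replicate 4, to 31 without acrolein replicate 3 and to 34 without H2O2 replicate 1 or 4. Over all 5785 probe sets 1348 were higher with the covariate and 1342 without acrolein replicate 1 and H2O2 replicate 4. In those fits the list's share of higher genes was not above that over all probe sets. RPL13A had one of the wider differences, at 13.54, 13.36, 13.69 and 13.29 after acrolein and 12.64, 12.80, 12.95 and 12.52 after H2O2 (0.74 ± 0.18, limma adjusted p = 0.00368, and 0.45 with the covariate). Of 20 tRNA synthetase genes 19 were higher and none lower (median 0.36), 14 with the covariate, and MES1, methionyl-tRNA synthetase, differed most (0.63 ± 0.10, limma adjusted p = 0.000184). Purine and one-carbon genes were higher in 16 of 27 and lower in 2 (median 0.35), and higher in 10 with the covariate (median 0.17) or without acrolein replicate 1 and H2O2 replicate 4. IMD4, an IMP dehydrogenase of guanine nucleotide synthesis, was among them (0.79 ± 0.17, limma adjusted p = 0.0017, and 0.44 with the covariate). The part of RNA quality in these differences was not tested beyond the fits given.

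**Figure D5:**
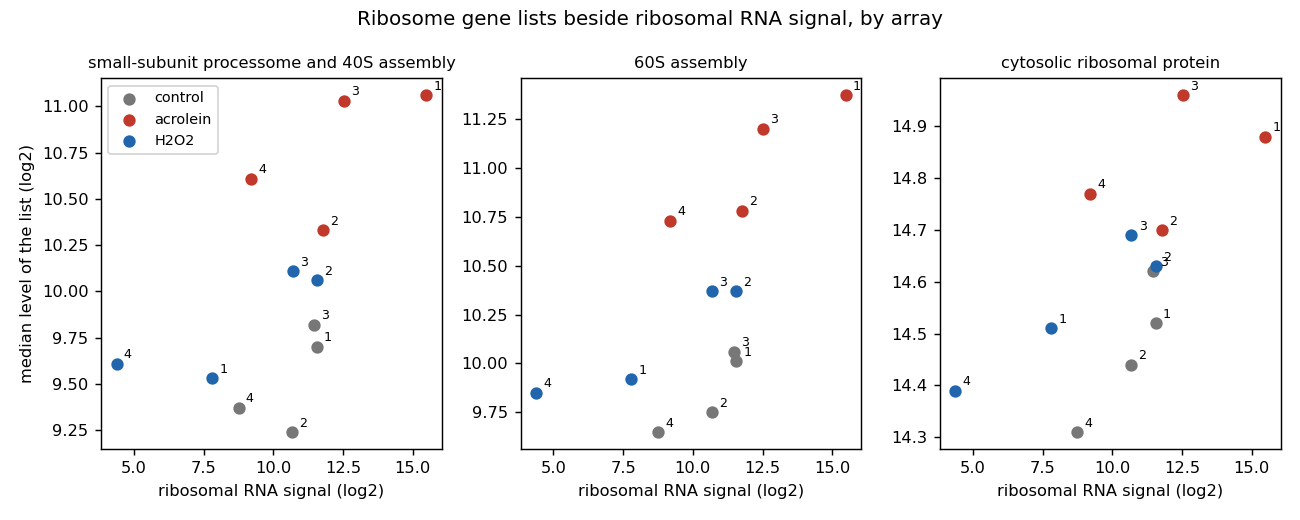
Median log2 level over 61 small-subunit assembly genes, 67 60S assembly genes and 127 ribosomal protein genes (vertical axes, scales differ between panels) against the ribosomal RNA signal of the array (horizontal axis, log2). Points are control (grey), acrolein (red) and H2O2 (blue) arrays numbered by replicate, and the acrolein arrays lie above the H2O2 arrays in each panel.

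Chaperone genes differed selectively. Of 32 heat shock and cochaperone genes 15 (46.9%) were higher and 3 (9.38%) lower after acrolein (median 0.13), beside 25.9% and 29.9% over all probe sets. AHA1, a cochaperone that stimulates Hsp90, read 14.71, 14.76, 14.68 and 14.80 after acrolein and 13.46, 13.45, 13.28 and 13.32 after H2O2, with the H2O2 arrays near the control mean of 13.15 (1.36 ± 0.07, limma adjusted p = 9.53e-09). CUR1, a sorting factor for misfolded proteins, was higher by 1.26 ± 0.14, YDJ1, the main cytosolic Hsp40, by 0.74 ± 0.07, and MDJ1, its mitochondrial counterpart, by 0.71 ± 0.05 (limma adjusted p = 7.14e-06, 8.92e-07 and 6.65e-08). HSP82, an Hsp90, differed by -0.09 ± 0.04 (95% interval -0.18 to 0.00, limma adjusted p = 0.0928). HSP26, a small heat shock protein, differed by 0.01 ± 0.05 (95% interval -0.10 to 0.12, limma adjusted p = 0.87) and was below its control mean of 15.14 on all 8 arrays. HSP12, a membrane-associated stress protein, was lower after acrolein (-0.60 ± 0.10, limma adjusted p = 0.000149). In the endoplasmic reticulum folding list 3 of 18 (16.7%) were higher and 5 (27.8%) lower, under the 25.9% and 29.9% over all probe sets. ERO1, the oxidase of disulfide formation there, was widest at 0.91 ± 0.12 (limma adjusted p = 2.36e-05).

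Of 38 proteasome genes 14 were lower and 3 higher, RPN4 among the latter (median -0.06), beside 29.9% lower over all probe sets. Without acrolein replicate 1 and H2O2 replicate 4, and with the covariate, 9 were lower. PRE6, a subunit of the core particle, had 13.38, 13.84, 13.56 and 13.60 after acrolein and 14.25, 14.16, 14.26 and 14.16 after H2O2 (-0.61 ± 0.08, limma adjusted p = 1.91e-05). General stress genes, targets of Msn2 and Msn4, were lower after acrolein in 33 of 40 and higher in 3 (median -0.53), and trehalose and glycogen genes in 15 of 20 with 1 higher (median -0.32). XBP1, a stress-induced repressor, read 4.52, 7.50, 6.69 and 6.72 after acrolein, replicate 1 within background, and 11.22, 10.49, 10.45 and 11.27 after H2O2 (-4.50 ± 0.48, limma adjusted p = 4.96e-06). FMP16, a mitochondrial protein of the stress response, and GAC1, the phosphatase subunit that activates glycogen synthase, were lower, with differences of -2.35 ± 0.10 and -2.44 ± 0.20 (limma adjusted p = 5.81e-10 and 3.65e-07). For XBP1, FMP16 and GAC1 the difference of H2O2 from control missed the threshold (limma adjusted p = 0.841, 0.298 and 0.933), while acrolein was below control (limma adjusted p = 2.12e-06, 1.17e-10 and 2.58e-07).

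Histone genes and several lists of the division cycle were lower after acrolein, while the G1 and S phase list was not shifted as a whole. In RNA from whole cultures, fewer cells at a cycle stage and less transcript per cell cannot be told apart. Of 9 histone genes 8 were lower and none higher (median -0.77), and of 21 genes of the G2/M phase 14 were lower and 3 higher (median -0.68). Of 21 genes of daughter separation and the M/G1 transition 15 were lower and 1 higher (median -0.33), 4 of them by at least 2-fold. The G1 and S phase list had 10 of 30 lower and 3 higher (median -0.03), beside 29.9% lower and 25.9% higher over all probe sets. Its count of higher genes was 7 after quantile normalization, with the ribosomal RNA covariate and without acrolein replicate 1 and H2O2 replicate 4, where the median was 0.03, 0.06 and 0.01, and 6 with the replicate block. CLN1, a G1 cyclin, read 4.42 to 5.89 over the 4 acrolein arrays, with replicate 1 within background and replicate 3 at its limit, and 9.06, 8.75, 8.68 and 9.52 after H2O2, with a control of 9.47 (-3.69 ± 0.37, limma adjusted p = 2.93e-06). SWI4, the G1 factor that activates it, was lower, with a difference of -1.60 ± 0.37 (limma adjusted p = 0.00263, and -0.95 with the ribosomal RNA covariate). CLB2, the main mitotic cyclin, read 6.92, 7.09, 7.41 and 7.14 after acrolein and 9.43, 8.69, 9.15 and 9.39 after H2O2 (-2.02 ± 0.19, limma adjusted p = 1.52e-06). HTA1, a histone H2A gene, read 14.05, 13.75, 14.09 and 13.72 and 15.05, 14.99, 15.10 and 14.95 (-1.12 ± 0.08, limma adjusted p = 9.43e-08). ASE1, a protein of the spindle midzone, went the other way (1.49 ± 0.14, limma adjusted p = 1.23e-06).

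Other genes with wide differences belong to none of these groups. YKL070W, of uncharacterised function, was at 11.38, 11.45, 11.33 and 11.74 after acrolein and 5.86, 5.99, 6.19 and 5.96 after H2O2 with a control mean of 4.28. That is 44.5-fold (5.48 ± 0.27, limma adjusted p = 3.04e-09). PET18 and HTL1, which lie close together in the RefSeq gene order, were both higher after acrolein, and neither differed from control after H2O2 beyond the threshold (limma adjusted p = 0.315 and 0.0871). PET18 read 12.59, 12.82, 12.43 and 12.63 and 8.84, 8.70, 8.55 and 8.64 with a control of 8.38 (3.93 ± 0.20, limma adjusted p = 4.3e-09), and HTL1, a subunit of the RSC chromatin remodeller, differed by 2.39 ± 0.16 (limma adjusted p = 6.83e-08). YDR042C and YGL041C-B, also uncharacterised, were higher by 2.84 ± 0.18 and 4.04 ± 0.43 (limma adjusted p = 3.07e-08 and 4.69e-06). PAU4 was higher by 2.37 ± 0.11 (limma adjusted p = 2.16e-09), on a probe set that can also catch other seripauperin genes, which are nearly identical.

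Some genes were above background after 1 agent alone. YOR161C-C sat at the file's minimum on all H2O2 and control arrays and at 7.34, 7.93, 7.07 and 8.84 after acrolein, at least 6.27-fold higher (limma adjusted p = 4.78e-09). CSM4, a meiotic gene, was within background after acrolein and at 9.51, 8.69, 9.58 and 9.04 after H2O2, at least 16.6-fold higher, with a control mean of 9.95 (limma adjusted p = 1.73e-09). DAK2, a dihydroxyacetone kinase, was within background on the acrolein and control arrays and at 9.15, 9.74, 9.21 and 10.15 after H2O2, at least 21.3-fold higher (limma adjusted p = 2.99e-10). Of all called probe sets, 11 had the whole H2O2 group alone within background and 29 the whole acrolein group alone. Another 28 were called with both groups wholly within background.

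A small set of genes stood near the same level under both agents. In these fits 11 genes had both treated means at least 1 above control and a 95% interval of the difference within 0.5 of 0, and none had both at least 1 below control. YLR108C, of unknown function, read 14.31, 14.44, 14.42 and 14.60 after acrolein and 14.48, 14.68, 14.33 and 14.33 after H2O2 with a control of 12.26 (difference -0.01 ± 0.08, 95% interval -0.18 to 0.16). YAP7, a Yap family repressor, read 11.41, 11.76, 11.76 and 11.95 and 11.57, 11.72, 11.68 and 11.38 with a control of 9.55 (95% interval of the difference -0.13 to 0.39). YOL029C, ARO2, the chorismate synthase, and HBN1, a relative of FRM2, had intervals of -0.09 to 0.27, -0.07 to 0.34 and 0.01 to 0.33. HBN1 passed the threshold, higher after acrolein, without acrolein replicate 1, without H2O2 replicate 2 and with the ribosomal RNA covariate (limma adjusted p = 0.047, 0.0387 and 0.0411), and ARO2 without H2O2 replicate 2 (limma adjusted p = 0.048). YNL134C, an NADH-dependent aldehyde reductase, was slightly higher after acrolein within that margin (0.15 ± 0.06, limma adjusted p = 0.0317), a call that ended in 10 of 21 other fits. These are bounds on the difference at the doses used. More often a gene raised by both agents was higher with acrolein: of 71 genes with both means at least 1 above the shared control arrays, 56 were called higher after acrolein and 3 higher after H2O2. Over all probe sets 25.9% were higher and 29.9% lower after acrolein. Acrolein also lay farther from control over all probe sets, with a median absolute difference of 0.33 against 0.13 for H2O2.

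Opposite changes from control were called for 78 genes, 33 above control after acrolein and below it after H2O2, and 45 the reverse. Besides PCK1, DUG3, TSA2, HMX1 and SIT1, these include DIA1, a gene of invasive growth, at 12.88, 12.85, 12.93 and 12.91 after acrolein and 11.41, 11.47, 11.56 and 11.18 after H2O2 around a control of 12.37 (1.49 ± 0.08, limma adjusted p = 8.27e-09). IRC10 and MND1, the latter a meiotic recombination gene, differed by 2.12 ± 0.12 and 2.48 ± 0.14 around control means of 8.91 and 6.17 (limma adjusted p = 9.18e-09 and 9.76e-09), with MND1 within background on 2 of 4 H2O2 arrays. MRS2, a magnesium channel of mitochondria, differed by 1.44 ± 0.15 around 7.76 (limma adjusted p = 2.93e-06). The control arrays are the same in both comparisons, so a low or high control mean would move both.

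The NEM arrays give another treated group beside some of the wide differences, and the genes here were chosen after their values were seen. DAL80, within background after acrolein, averaged 11.17 after NEM (limma adjusted p = 1.39e-10). MEP2 averaged 14.65 after NEM, above acrolein (-4.37 ± 0.20 acrolein minus NEM, limma adjusted p = 4.22e-09). CLB2 averaged 9.30 and PET18 7.93 after NEM, and acrolein differed from it by -2.16 ± 0.19 and 4.69 ± 0.20 (limma adjusted p = 2.07e-06 and 3.25e-09). FRM2 averaged 12.52 and SRX1 12.68, both above acrolein (-0.81 ± 0.22 and -0.52 ± 0.09 acrolein minus NEM, limma adjusted p = 0.00908 and 0.000465). CYC1 averaged 11.89 after NEM, and its acrolein level lay 0.66 ± 0.05 above that (limma adjusted p = 6.14e-07).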

How the data were processed

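The values were deposited by the authors as log2 signals per probe set, made with GCRMA (per the submitters' processing notes, with no version given); the log2 scale was read from the values, which run from 1.92 to 16.28. Of 10928 probe sets, 166 controls and 1747 for other species were set aside. Names came from the platform annotation, updated through RefSeq. The 5498 named sets gave 5449 genes, the brightest set per gene being kept, and 5404 were tested after 45 constant ones were dropped. With 381 varying probe sets that have no name here, 5785 were tested. limma 3.58.1 in R 4.3.3 fitted all 16 arrays with 1 mean per group (12 residual degrees of freedom). Summaries, exact permutation tests and plots used Python 3.11.15 (numpy 2.4.6, pandas 2.3.3, scipy 1.17.1, matplotlib 3.10.9). The fit was tested on simulated data with independent noise for each probe set and array. Effects shared by the probe sets of an array were not simulated. The precision is limited by the 4 arrays per group.

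Genes were named by rule: the 12 largest non-overlapping differences per direction above background, up to 6 per direction with 1 group within background, up to 8 near-equal and 6 opposed per direction, up to 4 called members per direction of each of 46 lists, and 40 genes named in any case. The text gives a selection of these, and the NEM values, GLO1, GLO4, STE3 and SAG1 were added after their values were seen. Members, lists and tests were chosen with earlier results of these data known. The alternatives were other normalizations, filters, floors, variance priors and thresholds, a replicate block, the 2 groups alone and each array left out. Leaving out acrolein replicate 1 with H2O2 replicate 4, and the ribosomal RNA covariate, were chosen after seeing the data.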

Additional observations from a re-analysis of the deposited data

Results flagged for a closer look

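Within groups of 4 arrays, a single array lay far from the others for 4 named genes, with 247 groups examined. That is a smaller share than the roughly 1 in 20 groups that chance gives. CCS1 read 14.005 on H2O2 replicate 4, below 14.295 to 14.314 on the other 3 H2O2 arrays. FLR1 read 12.517 on H2O2 replicate 1, below 12.778 to 12.805 on the others. SFC1 read 13.854 on H2O2 replicate 2, below 14.535 to 14.663. TAH18 read 13.368 on acrolein replicate 1, above 13.099 to 13.141 on the other acrolein arrays. The 4 genes involve 4 different arrays.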

How the results depend on the processing

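Of 129 tested genes in the text, 117 kept their direction and their side of the threshold in all 21 other fits and 12 did not. Counts of 1500 higher and 1732 lower probe sets became 1683 and 1577 after quantile normalization, 1348 and 1394 with the ribosomal RNA covariate, 1104 and 1323 at an adjusted p under 0.01, and 1314 to 1442 and 1542 to 1736 with any 1 array left out. Among the genes, changes of sign were confined to 4 whose differences never passed the threshold in the main comparison. SKN7 became 0.001 without acrolein replicate 1 and H2O2 replicate 4, and 0.042 with the covariate. AFT2 became 0.100 in each of those fits. With 1 array left out AFT2 ranged from -0.177 to 0.075, HSP26 from -0.020 to 0.051 and YLR108C from -0.061 to 0.062. YLR108C was 0.041 after quantile normalization. The 3′ minus 5′ difference ranged from -0.060 to 0.133 with 1 array left out, and the ribosomal RNA difference from 2.230 to 4.653. With values under the background limit set to it, LSO1 fell to -1.108, CSM4 to -4.056 and YOR161C-C to 2.649, as that setting's construction gives. With the probe sets of a gene averaged AAD4 was 0.511. For the other changes the cause was not tested.

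The replicate numbers were not taken to pair the arrays. Residuals of same-numbered acrolein and H2O2 arrays correlated at -0.291, -0.361, 0.387 and 0.396, whereas acrolein replicate 1 correlated at 0.513 with H2O2 replicate 2 and acrolein replicate 2 at 0.468 with H2O2 replicate 1. Whether these numbers were exchanged cannot be settled from the labels. The ribosomal RNA signal was lowest on replicate 4 of each group, at 8.75 in the control, 9.20 after acrolein, 4.38 after H2O2 and 9.23 after NEM. Whether same-numbered arrays were handled together was not tested. With the replicate block 1667 probe sets were higher and 1876 lower, 86 ribosomal protein genes were higher, and SKN7 and HSP82 passed the threshold (limma adjusted p = 0.0441 and 0.0465).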
